A study of Mus musculus with 6 samples.

Results

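Versican, encoded by Vcan, belongs to the lecticans, a family of 4 chondroitin sulfate proteoglycans that also holds aggrecan (Acan), brevican (Bcan) and neurocan (Ncan). Transcripts of these 4 genes and of the 4 hyaluronan and proteoglycan link proteins (Hapln1, Hapln2, Hapln3 and Hapln4) were followed in the mouse auditory nerve by RNA sequencing. The 8 genes were chosen by symbol, as a protein family, and all 8 were found among the 24062 symbols of the deposited count table. A lectican binds the polysaccharide hyaluronan through a globular domain at its amino end, binds tenascins and other partners through a C-type lectin domain at its carboxyl end, and carries chondroitin sulfate chains on the stretch between them. Link proteins clamp the lectican to hyaluronan. In nervous tissue such complexes form the perineuronal nets around cell bodies and the perinodal matrix at nodes of Ranvier, the gaps in myelin where sodium channels cluster.

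The nerves came from young adult mice, 3 wildtype and 3 Vcan knockout, with C57BL/6 given as the strain of both groups, and each library held RNA from both cochleae of a single mouse. The labels name no allele, do not say which part of Vcan was altered or in which cells, and do not give sex. Libraries held 74530860 to 92513887 gene counts. Neuron markers were present, as the tissue label implies: in wildtype nerve the synaptic gene Snap25 was at 2683 ± 1004 CPM (counts scaled to library size with TMM; SD, n = 3). Wildtype replicate 3 stood apart from the other libraries. Its correlations with them were 0.9475 to 0.9566 across genes (log2 CPM), against 0.9571 to 0.9855 for all other pairs, and the median of its 12 neuron markers was −0.74 relative to the wildtype mean on the log2 scale. Values that rest on this library are therefore given with and without it where both were computed. In a piece of nerve, fewer cells of a type and less RNA per cell cannot be told apart.

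In the mouse genome each lectican gene lies beside a link protein gene, with no annotated gene between them in any of the 4 pairs (GENCODE release M21 on GRCm38, the assembly that mm10 is made from). Vcan (chromosome 13, 89655312 to 89742509, minus strand) and Hapln1 (chromosome 13, 89539796 to 89611652, plus strand) run towards each other and end 43659 bases apart. Acan (chromosome 7, 79053483 to 79115099, plus strand) and Hapln3 (chromosome 7, 79115102 to 79131018, minus strand) also converge, and their annotated ends are 2 bases apart. Ncan (chromosome 8, 70093085 to 70120873, minus strand) and Hapln4 (chromosome 8, 70083457 to 70090862, plus strand) converge with a gap of 2222 bases. Bcan (chromosome 3, 87987531 to 88000230) and Hapln2 (chromosome 3, 88021750 to 88027583) share the minus strand, 21519 bases apart. Neighbours in these pairs thus have separate start sites, and no pair shares a start region. No other annotated gene shares an exon base with any of the 8. The span of the antisense gene Gm4117, on the other strand, overlaps that of Vcan by 3050 bases.

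The 250 bases before the start site are shown for Vcan and Hapln2, the genes with the lowest knockout to wildtype ratios of the 8, and for Bcan, the neighbour of Hapln2 and the lectican of highest level. Of the Hapln2 window, 72 bases lie in the first exon of a non-coding Hapln2 transcript in GENCODE. The sequences are RefSeq's on GRCm38.p6, each read 5′ to 3′ on the strand of the gene, and their windows are chr13:89742513-89742762, minus strand for Vcan, chr3:88000357-88000606, minus strand for Bcan and chr3:88027512-88027761, minus strand for Hapln2. Capitals mark matches on either strand to the GC box GGGCGG, the CCAAT box CCAAT and the TATA-like string TATAA.
Vcan: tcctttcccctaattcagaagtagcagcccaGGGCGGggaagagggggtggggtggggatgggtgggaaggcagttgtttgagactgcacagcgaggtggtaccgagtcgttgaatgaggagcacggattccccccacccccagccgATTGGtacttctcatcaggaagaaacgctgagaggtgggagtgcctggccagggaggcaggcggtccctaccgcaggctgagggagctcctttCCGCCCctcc
Bcan: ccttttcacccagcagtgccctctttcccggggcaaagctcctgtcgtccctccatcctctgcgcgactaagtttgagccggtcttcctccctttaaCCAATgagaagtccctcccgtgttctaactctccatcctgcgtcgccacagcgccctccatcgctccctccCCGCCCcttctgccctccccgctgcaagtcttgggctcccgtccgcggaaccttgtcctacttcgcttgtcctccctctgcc
Hapln2: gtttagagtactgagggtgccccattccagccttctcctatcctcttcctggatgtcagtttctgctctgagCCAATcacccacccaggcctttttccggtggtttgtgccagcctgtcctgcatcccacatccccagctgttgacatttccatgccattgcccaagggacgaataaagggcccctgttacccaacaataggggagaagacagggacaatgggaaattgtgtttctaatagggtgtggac
RefSeq promoters were found for 7 of the 8 genes, Hapln4 being the exception. RefSeq and GENCODE place some starts apart: all 250 bases of the Hapln1 window and 29 of the Ncan window lie in an exon that GENCODE gives the gene. GGGCGG occurred in all 4 lectican windows and in 0 of the 3 link protein windows, against 32.7% of all 32851 promoter windows of the same length. CCAAT occurred in the windows of Vcan, Acan, Bcan and Hapln2, against 33.8% of all windows, and TATAA in those of Ncan and Hapln3, against 22.8%. The GC content was 62.4% for Vcan, 74.4% for Acan, 62.0% for Bcan and 54.4% for Ncan, and 54.4%, 52.4% and 58.0% for Hapln1, Hapln2 and Hapln3, beside a median of 52.4% over all windows. The motifs were picked after these sequences had been seen, and a match describes the letters only.

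Levels of different genes were compared per kilobase of annotated exon, which for Vcan is 14462 bases and for Hapln2 2371. On this scale Hapln4, the brain link protein that accompanies brevican, had the highest level of the 8 in wildtype nerve, at 90.8, 86.2 and 42.3 CPM per kilobase in replicates 1, 2 and 3. Brevican (Bcan), a lectican of perineuronal nets and perinodal matrix, followed at 49.7, 45.3 and 19.8. Aggrecan (Acan), the proteoglycan of cartilage and of many perineuronal nets, was at 21.8, 16.0 and 21.7. The first 2 genes were lowest in wildtype replicate 3, whereas Acan was lowest in replicate 2. Hapln2, the link protein of central nodes of Ranvier, was at 13.1, 22.8 and 9.50 CPM per kilobase. Hapln1, the cartilage link protein that also builds perineuronal nets, was at 14.6, 13.8 and 10.2. Neurocan (Ncan), a secreted proteoglycan of nervous tissue, was at 3.46, 2.96 and 1.297. Versican was the lowest lectican by this length, at 0.578, 0.665 and 0.506 CPM per kilobase, and Hapln3 was lower still, at 0.0239, 0.0570 and 0.0566. The place of versican depends on the length chosen: with its shortest coding transcript of at least 1000 bases, which has 2273, the Vcan level was 3.68, 4.23 and 3.22 CPM per kilobase, overlapping Ncan and above it in mean.

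**Figure D1:**
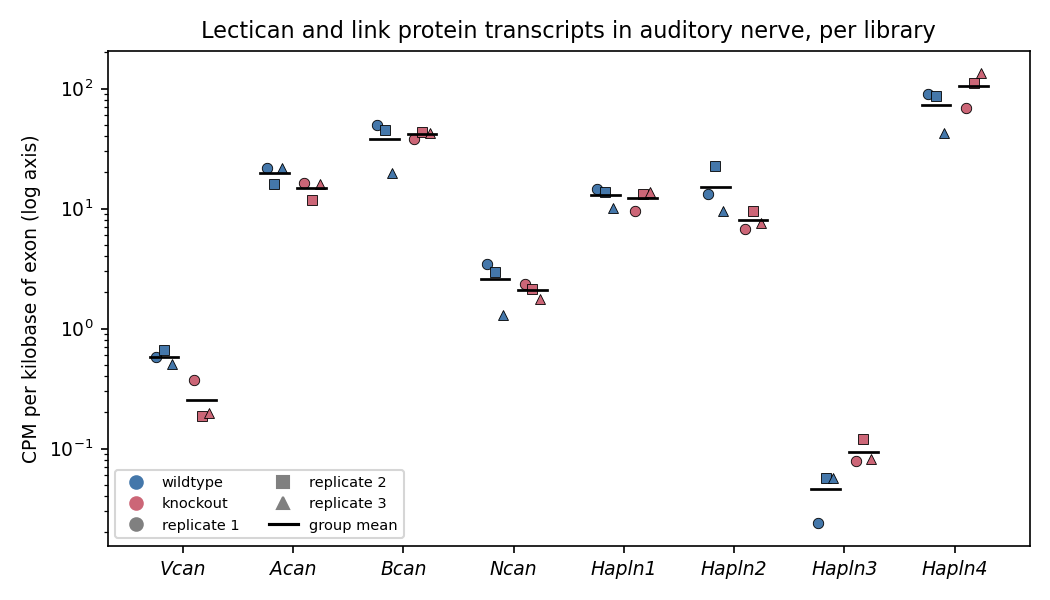
Level of each lectican and link protein gene in CPM per kilobase of exon (log axis), with 1 point per library, blue for wildtype and red for knockout, the marker shape giving the replicate and the bar the group mean. Vcan sits between 0.506 and 0.665 in wildtype and between 0.186 and 0.376 in knockout nerve, and Hapln4 is the highest gene in both groups.

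By exon length, neighbours in this order separated only at the lower end. From Hapln4 through Bcan, Acan and Hapln2 to Hapln1, each gene overlapped the next over the 3 wildtype libraries, although Hapln4 exceeded Bcan within each of the 3. Hapln1 exceeded Ncan 4.998-fold, Ncan exceeded Vcan 4.41-fold and Vcan exceeded Hapln3 12.7-fold in mean level, with no overlap, although Ncan and Vcan overlapped with the shorter Vcan length. Among the 19746 genes with a count and a known length, the wildtype mean put Hapln4 at rank 530, Bcan at 1220, Acan at 2698, Hapln2 at 3594 and Hapln1 at 4231. Ncan was at rank 10636, Vcan at 13650 and Hapln3 at 16867. By exon length, 30.9% of these genes had a lower level than Vcan. Without wildtype replicate 3, the ranks were 410 for Hapln4, 926 for Bcan, 2783 for Acan, 2933 for Hapln2 and 3795 for Hapln1. Ncan was then at 9851, Vcan at 13448 and Hapln3 at 16802. Single wildtype libraries put Bcan at 818, 1034 and 2702 and Hapln2 at 4063, 2336 and 5425.

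Brevican and aggrecan made up nearly all of the lectican level. Bcan took 65.8%, 69.8% and 45.7% of the summed lectican level per kilobase in wildtype replicates 1, 2 and 3, and Acan 28.8%, 24.7% and 50.1%. Wildtype replicate 3 was thus the single library in which Acan exceeded Bcan. Ncan took 4.05% ± 0.907 (SD, n = 3) and Vcan 0.987% ± 0.205 (SD, n = 3). These shares depend on the length given to each gene. Coding transcripts of Vcan run from 294 to 12427 bases, with or without the long exons that carry its chondroitin sulfate chains, and the shortest of at least 1000 bases has 2596 bases for Acan against an exon length of 7469, and 3141 for Bcan against 4064. With those shortest transcripts as lengths, the mean wildtype share was 51.8% for Acan, 42.7% for Bcan, 3.34% for Vcan and 2.21% for Ncan. In these means the order of both the upper and the lower pair was turned. The turn of the upper pair rests on wildtype replicate 3. By these lengths Acan was at 62.6, 46.1 and 62.4 CPM per kilobase in wildtype replicates 1, 2 and 3. Bcan was at 64.3, 58.7 and 25.6, above Acan in replicates 1 and 2. Counts over whole genes do not tell these isoforms apart.

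**Figure D2:**
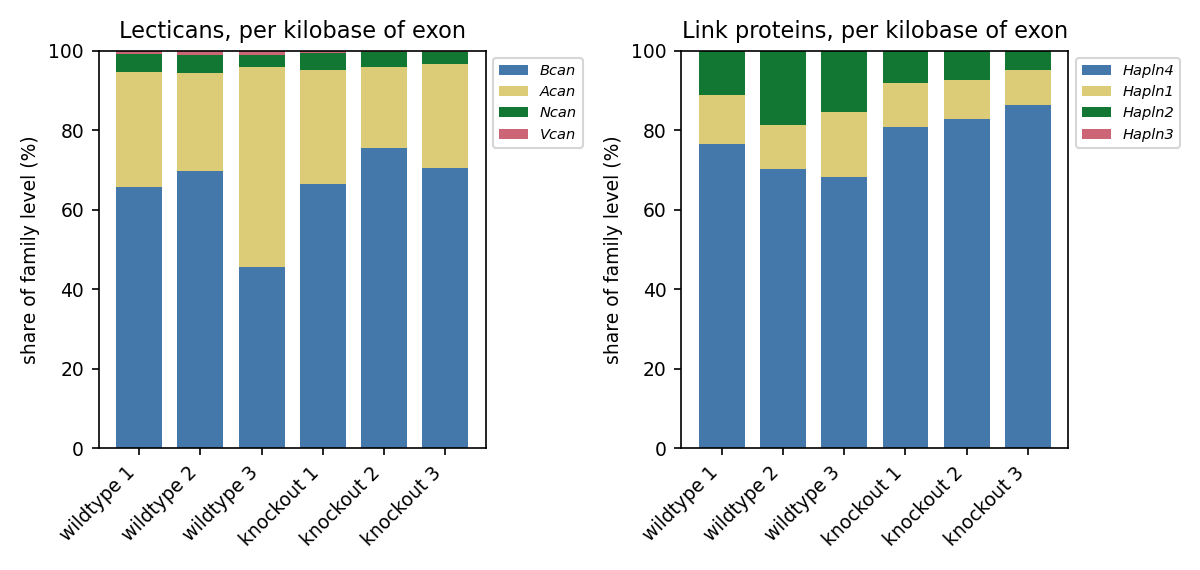
Share of the summed level per kilobase of exon (%) taken by each lectican (left) and each link protein (right), with 1 stacked bar per library. Bcan and Acan fill nearly all of the left bars, and the Hapln2 segment of the right bars is 11.1% to 18.6% in wildtype and 4.86% to 7.93% in knockout libraries.

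Counts of Vcan were lower in all 3 knockout libraries, though not at 0. With no allele given, the remaining counts cannot be read as intact transcript. Relative to the wildtype mean, the knockout libraries were at 64.5%, 32.0% and 34.1% of the Vcan level, so replicates 2 and 3 lay close together and replicate 1 higher, below the lowest wildtype library at 86.8%. The fitted knockout to wildtype ratio was 0.435 (95% interval 0.255 to 0.743; edgeR quasi-likelihood test, unadjusted p = 0.00815, adjusted p = 0.558 over 16722 genes). In log2 terms the difference was −1.20 (SE 0.32), and −1.60 without knockout replicate 1. Vcan passed the threshold in DESeq2 (adjusted p = 0.0327), as it did in the authors' deposited table (adjusted p = 0.0348). Fibroblasts and oligodendrocyte precursors are known to express Vcan. Over all genes tested, 51.1% had a negative fold change and 5.2% an unadjusted p under 0.05. All 9 fibroblast and meninges markers had a negative fold change (median −0.34, none passed in edgeR and 3 had an unadjusted p under 0.05), with a summed level of 2102 to 2417 CPM in wildtype and 1820 to 1984 CPM in knockout libraries. All 5 precursor markers did too (median −0.26, none passed and 0 had an unadjusted p under 0.05), at 361 to 418 and 328 to 405 CPM. The lists are not independent, as Pdgfra is on both. Lhfpl3 and Pdgfra were the most abundant precursor markers, at 240 and 132 CPM in wildtype nerve. None of these markers was at 0 in all libraries, and their part in the Vcan difference was not tested. The Vcan share of the lectican level was 0.654%, 0.326% and 0.327% in the knockout libraries. The drop in mean level, 0.329 CPM per kilobase, was 0.538% of the summed lectican level of wildtype nerve by exon length.

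None of the 8 genes passed in edgeR at an adjusted p under 0.05, a threshold that 0.138% of all genes tested passed. At an unadjusted p under 0.05 there were 2 of 8, Vcan and Hapln2, both lower, against 5.2% of all genes in either direction and 2.64% lower. The groups did not overlap for 2 of 8, Vcan (lower) and Hapln3 (higher), against 10.3% of all genes (4.93% lower and 5.42% higher). DESeq2 called 1 of 8 (1.44% of all genes), and so did the authors' deposited table (1.35% of all genes), Vcan in each case. Of the 8 fold changes 5 were negative and 3 positive, and the median log2 fold change was −0.19 beside −0.01 over all genes.

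**Figure D3:**
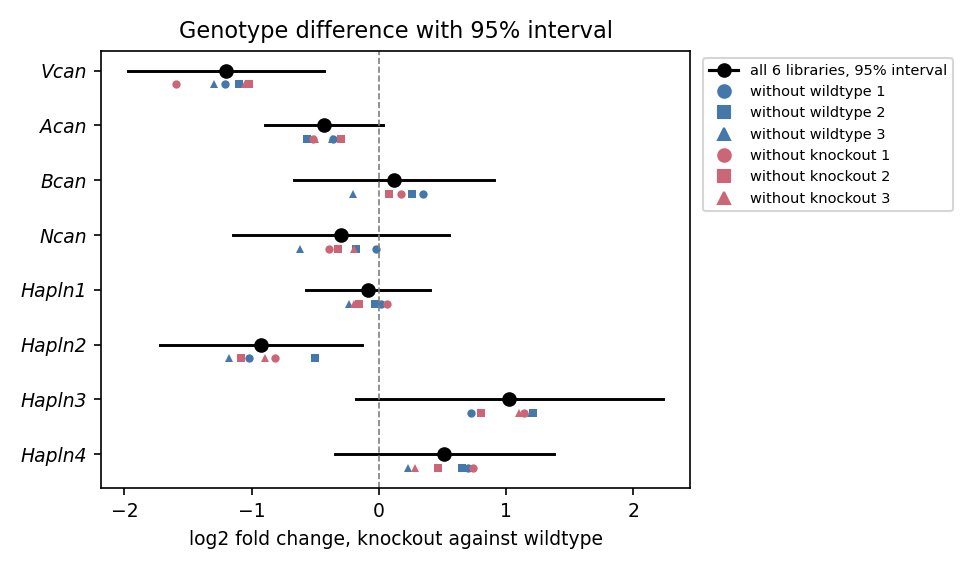
Log2 fold change of knockout against wildtype nerve for each gene, with its 95% interval (black, all 6 libraries) and, beneath it, the values with each library left out in turn (blue for a wildtype and red for a knockout library, the shape giving the replicate). The intervals of Vcan and Hapln2 lie below 0, and the Bcan value crosses to −0.20 without wildtype replicate 3.

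No other lectican was called higher in the knockout. Acan, the nearest to a change, was at 162, 120 and 162 CPM in wildtype and 123.1, 87.5 and 119 CPM in knockout libraries. Knockout replicate 1 overlapped wildtype replicate 2, and the other knockout libraries lay below all wildtype libraries. The fitted ratio was 0.742 (95% interval 0.538 to 1.02; edgeR unadjusted p = 0.0639, adjusted p = 0.9996). Bcan was at 202, 184 and 80.3 CPM in wildtype and 156, 175 and 175 CPM in knockout libraries. All knockout values lay within the wildtype range, and the ratio was 1.08 (95% interval 0.629 to 1.87; edgeR adjusted p = 0.9996). Ncan was at 24.9, 21.3 and 9.34 CPM in wildtype and 17.03, 15.5 and 12.7 CPM in knockout libraries, again within the wildtype range, with a ratio of 0.815 (95% interval 0.452 to 1.47; edgeR adjusted p = 0.9996).

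Both values rest on wildtype replicate 3. Without it, the log2 fold change was −0.62 (SE 0.18) for Ncan and −0.20 (SE 0.12) for Bcan, against −0.30 and 0.12 with all libraries, and neither passed (edgeR adjusted p = 0.480 and 0.924). Without wildtype replicate 1 the Ncan value was −0.02. The summed level of the 3 lecticans other than Vcan was 74.9, 64.3 and 42.8 CPM per kilobase in wildtype and 57.2, 57.02 and 60.7 in knockout libraries. The knockout mean was 58.3 ± 2.10 and the wildtype mean 60.7 ± 16.4 (SD, n = 3). The knockout sums lay within the wildtype range only through wildtype replicate 3: without it the wildtype mean was 69.6 ± 7.46 (SD, n = 2), and all 3 knockout sums lay below both remaining wildtype sums. The drop in Vcan counts, 0.329 CPM per kilobase by exon length and 2.09 by the shortest coding transcript, was smaller than the wildtype SD of these sums, so a rise of that size was not detectable here. Vcan protein was not measured.

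Among the link proteins, Hapln2 had the lowest ratio. It was at 31.1, 54.2 and 22.5 CPM in wildtype and 16.0, 22.8 and 17.9 CPM in knockout libraries. Knockout replicate 2 exceeded wildtype replicate 3 slightly, and wildtype replicate 2 stood above all others. The knockout to wildtype ratio was 0.526 (95% interval 0.304 to 0.911; edgeR unadjusted p = 0.0281, adjusted p = 0.831), and it did not pass in DESeq2 (adjusted p = 0.270) or in the authors' deposited table (adjusted p = 0.281). The log2 difference of −0.93 (SE 0.33) moved to −0.50 without wildtype replicate 2 and to −1.18 without wildtype replicate 3. Hapln2 is made by oligodendrocytes, and 13 of the 15 oligodendrocyte markers listed also had a negative fold change. Over all genes 51.1% were negative. None of the 15 passed in edgeR, 4 had an unadjusted p under 0.05 (5.2% of all genes), the median was −0.46, and their summed level was 3588 to 6960 CPM in wildtype and 2944 to 4719 CPM in knockout libraries. All 10 astrocyte markers had a negative fold change as well, with a median of −0.66, none past the threshold and 3 at an unadjusted p under 0.05. Their summed level was 2562 to 5775 CPM in wildtype and 2058 to 3555 CPM in knockout libraries. S100b, the most abundant, weighs most in these sums, at 959, 1274 and 3837 CPM in wildtype replicates 1, 2 and 3. Within wildtype nerve, S100b, Gjb6, Fgfr3 and Aldh1l1 were highest in replicate 3, and the other listed astrocyte markers were lowest there. The sum thus does not stand for the list as a whole. The water channel gene Aqp4 was at 194 ± 80.2 and 68.9 ± 17.05 CPM in wildtype and knockout nerve (SD, n = 3; edgeR adjusted p = 0.381). None of the markers of either list was at 0 in all libraries, and the part of oligodendrocyte or astrocyte content in the Hapln2 difference was not tested.

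Hapln4 went the other way in its mean. It was at 356, 338 and 166 CPM in wildtype and 270, 433 and 526 CPM in knockout libraries, so knockout replicate 1 fell inside the wildtype range and the other 2 above it. The ratio was 1.43 (95% interval 0.786 to 2.59; edgeR adjusted p = 0.9996), and the log2 difference of 0.51 (SE 0.36) was 0.23 without wildtype replicate 3 and 0.28 without knockout replicate 3. Neuron markers, of which 12 were measured, had a summed level of 7359 to 13155 CPM in wildtype and 12450 to 14170 CPM in knockout libraries, the lowest in wildtype replicate 3, and none was at 0 in all libraries. Of the 12 fold changes 7 were positive and 5 negative, with a median of 0.05 and 0 at an unadjusted p under 0.05 in edgeR. Snap25 and Calb2 weigh most in the sum, at 2683 ± 1004 and 2540 ± 536 CPM in wildtype and 3224 ± 356 and 3921 ± 1055 CPM in knockout nerve (SD, n = 3). The sum thus does not stand for the list as a whole. Astrocytes are a known source of brevican and neurocan, and the astrocyte median was −0.31 in wildtype replicate 3 and −0.54, −0.41 and −0.97 in the knockout libraries. The part of neuron and astrocyte markers in the Bcan, Ncan and Hapln4 values was not tested.

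Hapln1, the neighbour of Vcan, was at 86.3, 81.2 and 60.2 CPM in wildtype and 56.0, 77.8 and 81.1 CPM in knockout libraries. The groups overlapped almost wholly, with a ratio of 0.944 (95% interval 0.672 to 1.32; edgeR adjusted p = 0.9996), so a ratio as low as the 0.435 of Vcan lies outside the interval. Its log2 difference of −0.08 turned to 0.018 without wildtype replicate 1 and to 0.066 without knockout replicate 1. Hapln3, a link protein found mainly outside the nervous system, had 7, 18 and 17 counts in wildtype and 21, 39 and 25 in knockout libraries. All knockout libraries were above all wildtype libraries, with a ratio of 2.04 (95% interval 0.881 to 4.71; edgeR adjusted p = 0.9996). These counts were 0.0517% to 0.483% of the Acan counts of the same library. With ends 2 bases apart and no strand setting given, reads of Hapln3 and reads that run past the end of Acan cannot be told apart.

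Shares among the link proteins are described without a test, because they were read after the levels had been seen, and since they are parts of 1 sum they are not independent of each other. Hapln2 took 11.1%, 18.6% and 15.3% of the summed link protein level per kilobase in wildtype and 7.93%, 7.21% and 4.86% in knockout libraries. Hapln4 took 76.6%, 70.2% and 68.1% in wildtype and 80.8%, 82.8% and 86.2% in knockout libraries. Hapln1 took 12.3%, 11.2% and 16.4% in wildtype and 11.15%, 9.89% and 8.83% in knockout libraries. These 3 shares did not overlap between the groups, the Hapln1 share by a narrow margin. The 10.3% of all genes without overlap refers to levels of single genes, and no such background was computed for shares or for ratios of 2 genes. The ratio of Bcan to its neighbour Hapln2 was 3.79, 1.99 and 2.08 in wildtype and 5.68, 4.49 and 5.69 in knockout libraries, also without overlap. For Acan over Hapln3, which rests on the few Hapln3 counts, it was 909.6, 281.2 and 383.2 in wildtype and 209.2, 97.4 and 193 in knockout libraries, without overlap. The ratio of Vcan to Hapln1 was 0.0396, 0.0483 and 0.0497 in wildtype and 0.0397, 0.0142 and 0.0145 in knockout libraries, and knockout replicate 1 thus fell just inside the wildtype range. For Ncan over Hapln4 the ratio was 0.0344 ± 0.00368 in wildtype and 0.0224 ± 0.0109 in knockout nerve (SD, n = 3), with overlap.

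**Figure D4:**
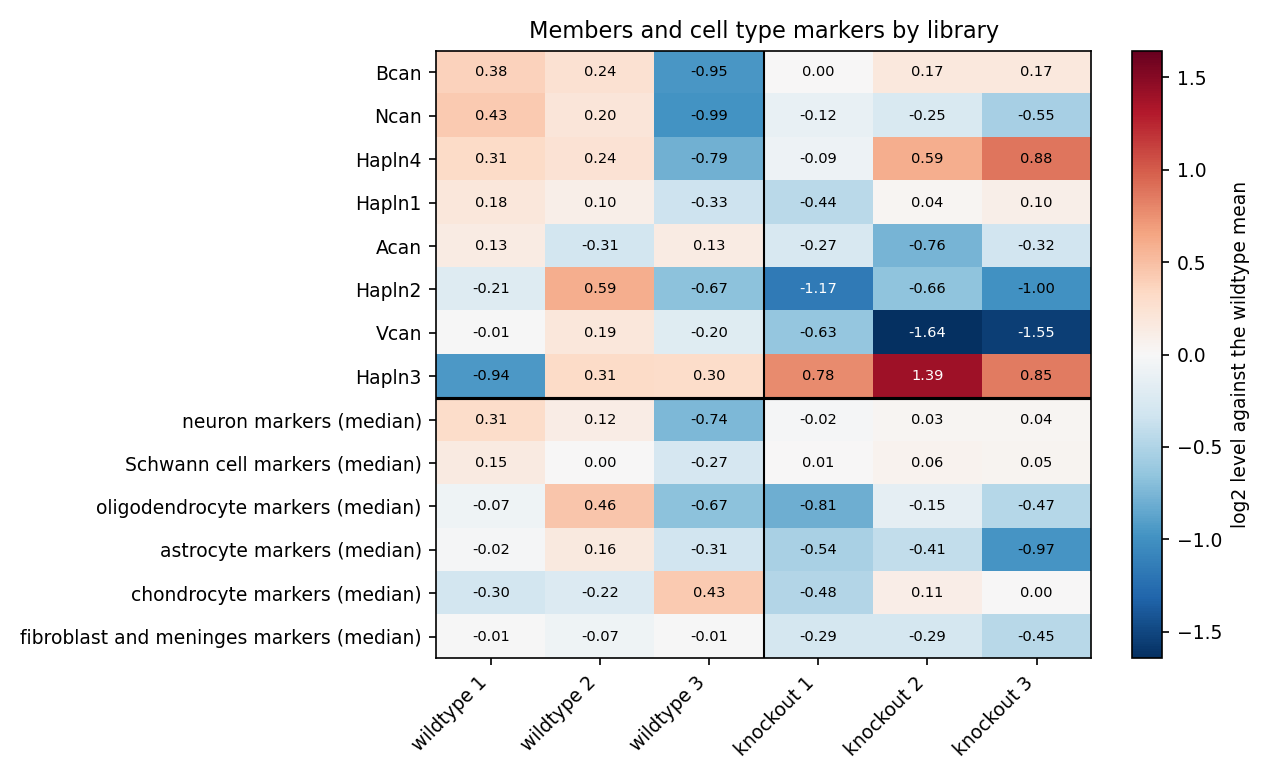
Log2 level against the wildtype mean in each library for the 8 genes (above the line) and the median over each list of cell type markers (below it), red for higher and blue for lower. Bcan, Ncan and Hapln4 are at −0.95, −0.99 and −0.79 in wildtype replicate 3, where the neuron marker median is −0.74, and Hapln2 is highest in wildtype replicate 2, as is the oligodendrocyte median.

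Over all 6 libraries, the genes fell into patterns that did not follow their positions. Likeness was measured as the root mean square difference of log2 CPM between 2 genes over the 6 libraries after each was centred on its own mean, so that 0 means equal shape. Of the 28 pairs among the 8 genes, Ncan with Bcan was the closest at 0.27 and Hapln4 with Bcan came next at 0.29. Wildtype replicate 3 weighs heavily here, with Bcan, Ncan and Hapln4 at −0.95, −0.99 and −0.79 against their wildtype means on the log2 scale. The order of pairs without that library was not computed, and it may differ. Neighbouring genes were less alike: Ncan with Hapln4 came 10th at 0.55, Bcan with Hapln2 13th at 0.62, Vcan with Hapln1 20th at 0.77 and Acan with Hapln3 24th at 0.90. Markers of chondrocytes, which make much aggrecan and Hapln1 in cartilage, were measured beside Acan. The 9 of 12 that were tested had a summed level of 697 to 997 CPM in wildtype and 604 to 858 CPM in knockout libraries, with 7 lower and 2 higher. Col2a1 and Col9a2 were the most abundant at 192 ± 25.3 and 164 ± 53.3 CPM in wildtype nerve, while the cartilage markers Comp and Matn1 were at only 2.42 ± 0.664 and 0.755 ± 0.743 CPM (SD, n = 3). The part of cartilage in the Acan level was not tested.

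Across 13642 genes with a mean of at least 1 CPM, the pattern nearest to that of Vcan was that of Wnt3, with a root mean square difference of 0.19, followed by Elovl2 at 0.20 and Pot1b at 0.21. For comparison, the Vcan values themselves varied by 0.72 around their mean on this scale. Bcan had the closest matches of the 8, with Olfm1 at 0.03, Eef1a2 at 0.05 and Iglon5 at 0.06. The nearest to Hapln2 was Ppp1r14a at 0.09, to Ncan Fxyd7 at 0.09, to Hapln4 Fbll1 at 0.08 and to Acan Zfp97 at 0.09. Hapln1 was matched best by Unkl at 0.06 and Hapln3 by Ppp1r27 at 0.16. With 6 libraries and so many genes, close matches arise for any pattern, and nothing is read from them.

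The binding partners and processing enzymes of versican did not pass either. Of 29 genes listed for hyaluronan synthesis, tenascins, fibulins, fibrillins, inter-alpha-trypsin inhibitor heavy chains, versican-cleaving ADAMTS proteases and other perinodal proteins, 27 had counts enough to be tested, and 9 had a positive and 18 a negative fold change in knockout nerve, beside 51.1% negative over all genes. None passed in edgeR over all genes, 3 had an unadjusted p under 0.05 (5.2% of all genes), and the median log2 fold change was −0.15 beside −0.01 over all genes. The fibulin gene Fbln2, whose protein binds the lectin domain of versican, was at 49.4, 41.3 and 45.2 CPM in wildtype and 72.6, 76.7 and 68.5 CPM in knockout libraries (edgeR unadjusted p = 0.00120, adjusted p = 0.247). Ptprz1, which encodes the receptor phosphatase and proteoglycan phosphacan, was at 40.0, 39.6 and 32.2 CPM in wildtype and 28.9, 21.1 and 21.6 CPM in knockout libraries (edgeR unadjusted p = 0.00887, adjusted p = 0.586). Cspg5, the proteoglycan neuroglycan C, was at 8.77, 10.2 and 8.67 CPM in wildtype and 6.58, 6.89 and 6.14 CPM in knockout libraries (edgeR unadjusted p = 0.0268, adjusted p = 0.821). The groups did not overlap for 4 of the 27 genes, these 3 and Tgfbi, against 10.3% of all genes. Tgfbi, named here after its values were seen, was at 78.8 to 89.8 CPM in wildtype and 95.9 to 104.5 CPM in knockout libraries.

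The most abundant members of that list showed no such separation. Itih5 and Itih2, heavy chains of the family whose members are transferred onto hyaluronan, were at 526 ± 115 and 340 ± 81.2 CPM in wildtype and 517 ± 173 and 274 ± 119 CPM in knockout nerve (SD, n = 3). Adamts5, a protease that cuts versican and aggrecan, was at 97.9 ± 28.4 and 107 ± 4.88 CPM, and the leucine-rich proteoglycan Prelp at 98.8 ± 7.48 and 97.7 ± 15.8 CPM (wildtype and knockout, SD, n = 3). All 4 overlapped between the groups.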

How the data were processed

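Libraries were made from total RNA with a TruSeq kit, per the labels' protocols. The submitters' processing notes name the mm10 build, HTSeq and DESeq2. Aligner, versions, strand setting and annotation were not given in the sources used here. The deposited table holds raw counts per gene, used here, and the authors' own comparison: a mean normalised signal, log2 fold changes, a test score and p-values, all made by the authors and printed only where their table is named. The 5 symbols on 2 rows had identical counts and were joined.

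Counts were tested in R 4.3.3 with edgeR 4.0.16 (filterByExpr, 16722 genes including all 8; TMM factors 0.964 to 1.02; robust 2-sided quasi-likelihood F tests, Benjamini-Hochberg over all genes, threshold 0.05). Intervals use the standard error, the log2 fold change divided by the square root of F. DESeq2 1.42.0 was an alternative. The pipeline was tested on simulated data. Lengths are unions of GENCODE exons, found for 23470 symbols. Marker medians use CPM + 0.1.

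The 8 genes, the partner and marker lists and the tests were chosen with earlier results of these data known. All 8 genes were named, with 3 nearest patterns for each (not all printed, mean of at least 1 CPM, predicted genes left out), and, of the partner list, genes past the threshold or, with none, the 4 of highest mean and those at an unadjusted p under 0.05. Of the marker lists, those set beside a result are described. Whether libraries were prepared together is not given. The p-values rest on the spread between libraries within a group, in which mice and any differences in their preparation are mixed. The sample descriptions carry serial numbers that run in a separate block for each genotype, and what these numbers stand for is not given. A preparation difference between the groups would enter the fold changes and cannot be told apart from genotype.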

Additional observations from a re-analysis of the deposited data

How the results depend on the processing

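All 8 genes kept their direction with size factors from RLE, upper quartile scaling, no filter on low counts, robust estimation off and DESeq2. Leaving out single libraries turned Bcan (−0.20 to 0.35 on the log2 scale) and Hapln1 (−0.23 to 0.066, with 0.018 without wildtype replicate 1 and 0.066 without knockout replicate 1), and the cause was not tested. The other ranges were −1.60 to −1.02 for Vcan, −0.56 to −0.30 for Acan, −0.62 to −0.02 for Ncan, −1.18 to −0.50 for Hapln2, 0.72 to 1.21 for Hapln3 and 0.23 to 0.74 for Hapln4. DESeq2 called Vcan (−1.20), 1 of the 8 genes, and 256 genes in all against 23 in edgeR. Without single libraries edgeR called 3 to 14 genes and 0 of the 8.

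With longest transcripts as lengths, Acan moved to rank 3639, Hapln2 to 4693 and Hapln1 to 5333 in wildtype nerve. The Hapln2 move was smaller than the SD of its rank over the wildtype libraries, 1548. In knockout nerve Bcan then took 75.6% and Ncan 2.96% of the lectican level, with sums of 71.0 CPM per kilobase for 4 lecticans and 70.7 without Vcan. With shortest coding transcripts, the wildtype and knockout shares were 51.8% and 42.2% for Acan, 42.7% and 54.0% for Bcan, 2.21% and 2.11% for Ncan, and 3.34% and 1.61% for Vcan, with sums of 113 and 99.7, or 109 and 98.1 without Vcan. These shifts follow from the lengths themselves. Scaling by library totals moved no sum beyond its SD, and it leaves shares within a library unchanged by construction.

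The replicate numbers are those of the titles, while the knockout descriptions are numbered 1, 3 and 4. Same-numbered libraries of the 2 groups come from different mice. Their deviations from the group means correlated at 0.43, 0.22 and −0.15 for numbers 1, 2 and 3, beside −0.49 to 0.37 for unlike numbers. These values do not settle whether the numbers stand for a shared preparation. Knockout replicate 1 correlated with wildtype replicate 1 at 0.977 (log2 CPM), above its 0.961 and 0.962 with knockout replicates 2 and 3. Not every library correlated best with its own number. With the replicate block 3 genes were called, none of the 8, and Vcan was at −1.27 (edgeR adjusted p = 0.656). Depth limits Hapln3 most, with 7 to 39 counts a library.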
